A study of Homo sapiens with 24 samples.

Results

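The comparison described here set the 3 libraries of the ZC3H7B-overexpressing line (ZC3H7B-OE) against the 3 libraries of the control line after 4 h of uridine chase, over all sequenced reads. These 6 of the 24 libraries of the series were chosen by line and chase time alone. HEK293 is an established human embryonic kidney line. In the study, SLAM-seq was used: cells take up 4-thiouridine (s4U), build it into new RNA, and alkylation of the extracted RNA later makes the labelled uridines read as C. All reads, labelled or not, measure the amount of each mRNA, and during the chase the labelled reads are meant to come from RNA made before it. The control line is given as Flag/HA overexpression and the other as Flag-HA/ZC3H7B overexpression. Both lines had 100 µM s4U together with 1 µg/mL doxycycline in the medium over a pulse of 24 h, and the chase, after a PBS wash, used 10 mM uridine. Doxycycline and s4U were thus common to both arms, and libraries without doxycycline were not analysed here. The labels do not say whether either line is a single clone, and they do not say that the 3 replicates of a group came from separate cultures. The p-values therefore rest on the spread among these libraries, and that spread may be technical.

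ZC3H7B and its paralog ZC3H7A are RNA-binding proteins with CCCH zinc fingers, a fold in which cysteines and a histidine hold a zinc ion and which often contacts single-stranded RNA. The amount of an mRNA reflects both its synthesis and its decay, and a difference in all reads does not separate them. Transcripts that decay fast, such as those of immediate early and stress-response transcription factors, are renewed within hours. Transcripts for ribosomal proteins and glycolytic enzymes turn over slowly.

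The 6 libraries held 2480380 to 3161866 reads. Labelled reads made up 47.7% ± 0.759 (SD, n = 3) of reads in control and 45.5% ± 0.521 in ZC3H7B-OE. Each library's mean correlation with the others of its group lay between 0.9733 and 0.9772. Of 12 tested markers of kidney progenitors and HEK293 cells, 0 were called as different between the lines, where 17.7% of all entries were. INA, an intermediate filament protein known from HEK293 cells, held 905 reads in control and 1172 in ZC3H7B-OE, and HOXD11, a homeobox gene of the kidney lineage, held 937 and 795. VIM, PAX2, PAX8 and LHX1 were at or near 0, with 23, 0, 0 and 11 reads in control. Of the other cell types' markers, PTPRC, CD3E, CD3D and TYROBP (leukocyte), CDH5, TEK and VWF (endothelial) and COL1A2, DCN, PDGFRA, FAP and POSTN (fibroblast) had 0 reads in both lines. Others had reads. Over each whole list, control and ZC3H7B-OE held 480 and 640 leukocyte, 98 and 52 endothelial and 17 and 15 fibroblast reads. Epithelial markers held 1199 and 1439 reads and neuronal ones 1616 and 1544. The 2 tested endothelial markers had a median log2 difference of -0.88 and were not called. In bulk RNA, fewer cells of a type and less RNA per cell cannot be told apart.

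At 4 h the lines differed in 1772 of 10038 tested entries, 17.7%. Of these, 682 were higher in ZC3H7B-OE (6.79% of those tested) and 1090 were lower (10.9%), by edgeR's quasi-likelihood test over all 24 libraries at an adjusted p of 0.05. The median difference was small, -0.03 on the log2 scale over all entries tested, 0.67 over those called higher and -0.80 over those called lower. A difference of at least 2-fold was seen in 73 called higher and 333 called lower. Calls were more frequent among well-measured entries. With a mean of at least 20 CPM (reads scaled to a common library size), 10.6% were called higher and 15.8% lower. When only the 6 libraries entered the fit, the counts were 1452 higher and 1652 lower of 9100 tested, and 677 and 1067 of the entries named above were among them. The library least like its group was control 0 h replicate 3 (mean correlation 0.9139, TMM factor 0.7242). Leaving out all 0 h libraries gave 1477 higher and 1403 lower, so that 51.3% of the called entries were higher against 38.5% with them.

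**Figure D1:**
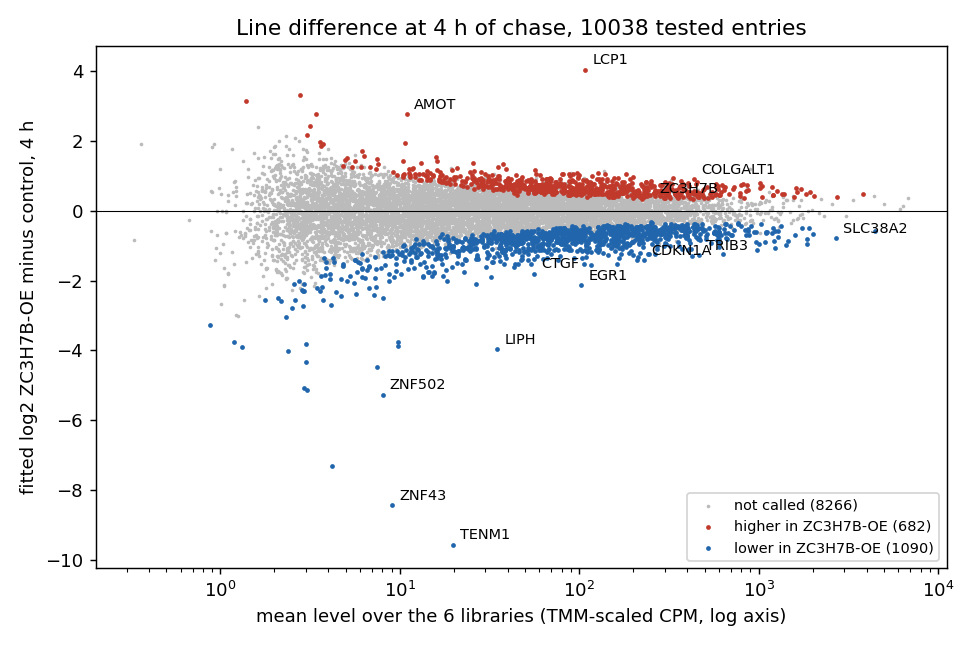
Fitted log2 difference (ZC3H7B-OE minus control, vertical axis) against mean level over the 6 libraries in TMM-scaled CPM, reads per library scaled to a common size (log axis), for 10038 tested entries at 4 h. Each point is an entry, with 682 called higher in red and 1090 called lower in blue; LCP1 is the highest point and TENM1 and ZNF43 are the lowest.

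ZC3H7B itself was higher in ZC3H7B-OE in each library but did not pass the test. Its level was 205, 220 and 249 CPM in the control replicates and 285, 275 and 295 CPM in ZC3H7B-OE (reads scaled to a common library size with edgeR's TMM factors). The 2 groups did not overlap, as was so in this direction for 18.1% of all entries. The log2 difference was 0.34 (SE 0.16, edgeR adjusted p = 0.127). In the fit of the 6 libraries alone it passed, with a log2 difference of 0.37 and an edgeR adjusted p of 0.00437. Without control 0 h replicate 3 the edgeR adjusted p was 0.0109.

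The labelled and unlabelled ZC3H7B reads moved in opposite directions. Labelled reads were 63.8% ± 2.81 (SD, n = 3) of ZC3H7B reads in control and 35.0% ± 2.96 in ZC3H7B-OE. On the log2 scale the labelled reads differed by -0.51 and the unlabelled reads by 1.20. Both values come from the same libraries as the total. Whether transcripts of the construct were counted is not stated. ZC3H7A held 69.7, 64.8 and 71.0 CPM in control and 66.8, 90.6 and 84.1 CPM in ZC3H7B-OE, groups that overlapped, with a log2 difference of 0.23 (SE 0.18, edgeR adjusted p = 0.402).

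LCP1, also called L-plastin, an actin-bundling protein best known from leukocytes, had the largest difference upward among the 627 eligible genes with at least 10 CPM. Control replicates held 15.1, 12.0 and 9.55 CPM, and ZC3H7B-OE replicates held 219, 188 and 206 CPM. The log2 difference was 4.04 (SE 0.24, edgeR adjusted p = 2.15e-13). Eligible genes were called entries whose libraries did not overlap between the lines, so the lack of overlap was set by the choice. PTPRC, the pan-leukocyte surface protein, had 0 reads in both lines. The summed level of the 3 tested leukocyte markers was 46.57 to 59.95 CPM in control and 63.99 to 89.82 CPM in ZC3H7B-OE. Of these markers 0 were called, where 17.7% of all entries were. CD68, a lysosomal protein of macrophages, supplied most of that sum, with 398 and 515 reads.

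AMOT, angiomotin, a scaffold that binds YAP at cell junctions, came next. It held 2.21, 2.33 and 3.82 CPM in control and 21.5, 16.0 and 19.7 CPM in ZC3H7B-OE, with a log2 difference of 2.77 (SE 0.41, edgeR adjusted p = 1.83e-05). These levels rest on 23 reads in control and 162 in ZC3H7B-OE. IL27RA, a receptor subunit for interleukin 27, rose from 3.15, 5.82 and 4.20 CPM to 14.2, 16.7 and 19.7 CPM (log2 difference 1.94, SE 0.38). Other genes named by size in this direction lay between 1.22 and 1.54 on the log2 scale. They were C19orf70, a subunit of the mitochondrial MICOS complex, KLHL25, an adaptor for a ubiquitin ligase, ETV2, an ETS transcription factor, PODXL2, a membrane glycoprotein, FAM207A, RP11-527L4.2, ADAMTS15, an extracellular protease, and SLC12A7, a potassium-chloride cotransporter. ETV2 lost its call without ZC3H7B-OE 4 h replicate 2 (edgeR adjusted p = 0.0732), and ADAMTS15 without ZC3H7B-OE 4 h replicate 1 or control 4 h replicate 1 or 2, with edgeR adjusted p-values of 0.0556 to 0.0693.

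TENM1, teneurin-1, a large transmembrane protein of developing neurons, was present in control and had 0 reads in ZC3H7B-OE. Control replicates held 44.8, 35.7 and 37.8 CPM, from 333 reads in all. With a floor of 3 counts over the group, TENM1 was at least 112-fold lower in ZC3H7B-OE (edgeR adjusted p = 3.35e-09). ZNF43, a KRAB zinc finger gene, showed the same pattern at a lower level, 19.9, 21.3 and 13.0 CPM in control against 0 reads in ZC3H7B-OE, and was at least 51.2-fold lower (edgeR adjusted p = 8.99e-08). ZNF502 held 132 reads in control and 3 in ZC3H7B-OE, a ratio of 44.4 with an exact 95% interval of 14.9 to 218 that covers counting error only.

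LIPH, a phosphatidic acid-selective lipase, had the largest fitted difference downward after TENM1 among the genes with at least 10 CPM. It held 68.1, 69.5 and 59.2 CPM in control and 2.65, 5.94 and 4.02 CPM in ZC3H7B-OE (log2 difference -3.96, SE 0.31, edgeR adjusted p = 1.03e-10). Below it came EGR1, OGFRL1, GJA3, ZDHHC20, EGR3, GPM6A, NRIP3, ZNF681, MBLAC2 and CTGF. Among these, OGFRL1 had a log2 difference of -2.11 (SE 0.31), GJA3, a gap junction protein, -2.01 (SE 0.30), and ZDHHC20, a protein palmitoyltransferase, -1.89 (SE 0.29). GPM6A, a neuronal membrane glycoprotein, stood at -1.88 and NRIP3 at -1.87. TENM1 is also one of the 9 tested neuronal markers (33.3% called, against 17.7% over all entries). Of these, MAP2, a dendritic microtubule protein, was lower too (37 and 9 reads) and ENO2 was higher. MAP2 lost its call without any single 4 h library (edgeR adjusted p = 0.0639 to 0.113), and ENO2 without ZC3H7B-OE 4 h replicate 2 or 3 or control 4 h replicate 1 or 2 (edgeR adjusted p = 0.0987 to 0.142). Their summed level was 187.9 to 197.5 CPM in control and 151.2 to 204.8 CPM in ZC3H7B-OE, and the neuronal markers DCX and STMN2 had 1 and 0 reads in control. The part of other cells in these differences was not tested.

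**Figure D2:**
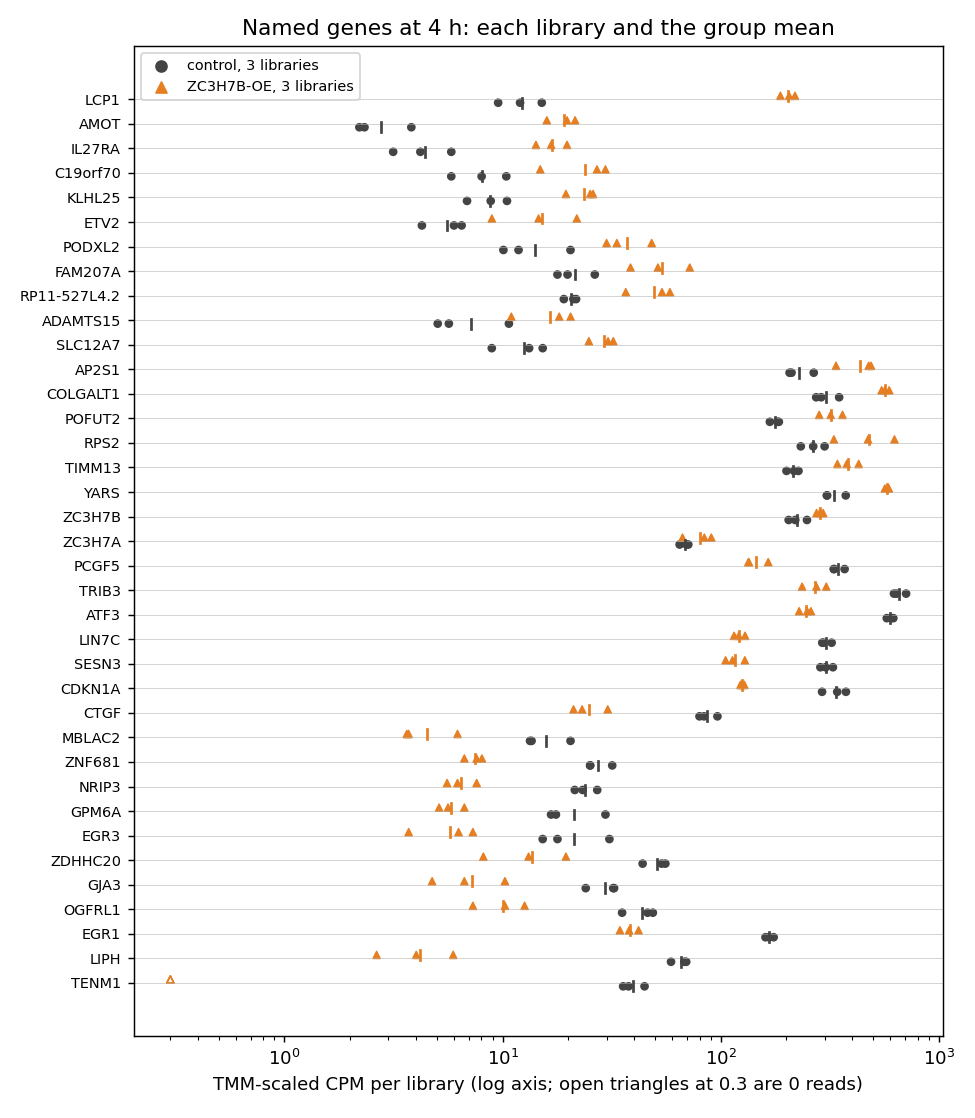
Levels of genes named by size, ZC3H7B and ZC3H7A in each library at 4 h (horizontal log axis, TMM-scaled CPM), ordered by the fitted difference; circles are the 3 control libraries, triangles the 3 ZC3H7B-OE libraries and short bars the group means. Genes named by size were chosen to have no overlap between the lines. Of ZC3H7B and ZC3H7A, for which this was not required, circles and triangles overlap for ZC3H7A. The open triangle of TENM1 stands for 0 reads in each of the 3 libraries.

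Immediate early genes, the transcription factors and secreted proteins that cells induce within minutes of a growth or stress signal, were lower as a group. Of 35 tested, 0 were higher, 14 were lower and 21 were not called, against 6.79% and 10.9% over all entries. Their median log2 difference was -0.53, against -0.03 over all entries. EGR1, a zinc finger transcription factor, held 160, 166 and 175 CPM in control and 42.0, 34.5 and 38.0 CPM in ZC3H7B-OE (log2 difference -2.13, SE 0.20, edgeR adjusted p = 1.57e-08). EGR3, its relative, fell from 30.9, 17.9 and 15.3 CPM to 6.29, 3.71 and 7.31 CPM. CTGF, a secreted matrix protein and a target of YAP, went from 83.8, 79.9 and 96.6 CPM to 23.2, 21.2 and 30.4 CPM (log2 difference -1.80, SE 0.24). JUN, a subunit of AP-1, was lower by less, with a log2 difference of -0.70 (SE 0.12, edgeR adjusted p = 0.000126). The remaining called members were ATF3, MAFF, DUSP1, SPRY4, ARC, KLF10, FOSL2, CYR61, IER5 and IER2. The count of lower members ran from 10 to 14 when a single 4 h library was left out, and it was 16 with the 6 libraries alone.

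CArG boxes are sites known to bind serum response factor. The 2 found in the 250 bases before the EGR1 start are shown because EGR1 led this group. Sequence farther upstream was not searched. Each line gives 30 bases from RefSeq on GRCh38.p14, with the box in capitals; they lie at chr5:138465364-138465393 and chr5:138465386-138465415 on the plus strand.
EGR1 box A: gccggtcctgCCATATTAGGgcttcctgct
EGR1 box B: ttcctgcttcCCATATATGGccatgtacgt
A CArG box, read on both strands, was found in 1.29% of 27305 promoters (250 bases before to 50 after the start) and in 2 of the 24 immediate early genes with a promoter in the table. The AP-1 letters TGANTCA were found in 1 of these 24 and in 7.76% of all promoters. SRF, the gene for serum response factor, had a log2 difference of 0.13 and was not called.

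The integrated stress response raises translation of the transcription factor ATF4 when the initiation factor eIF2 is phosphorylated, and ATF4 then activates genes for amino acid supply. Of its 27 tested genes, 11 were lower, 0 were higher and 16 were not called (40.7% called, against 17.7% over all entries). Their median log2 difference was -0.33. ATF3, a stress-induced repressor, held 618, 603 and 577 CPM in control and 249, 259 and 229 CPM in ZC3H7B-OE (log2 difference -1.29, SE 0.15, edgeR adjusted p = 3.77e-07). TRIB3, a pseudokinase that restrains AKT and ATF4, went from 623, 641 and 708 CPM to 305, 236 and 275 CPM (log2 difference -1.27, SE 0.14). DDIT4, an inhibitor of mTORC1, went from 369, 336 and 404 CPM to 148, 175 and 146 CPM (log2 difference -1.24, SE 0.15). For these 3 genes no ZC3H7B-OE library reached any control library, as was so for 22.5% of all entries. ATF3 and TRIB3 were also named by size, which required this. XPOT, the tRNA export receptor, was lower too, with a log2 difference of -1.02 (SE 0.12). ATF4 mRNA itself was not called, with 241 reads in control and 317 in ZC3H7B-OE (log2 difference 0.41, edgeR adjusted p = 0.269). Without ZC3H7B-OE 4 h replicate 3 the count of lower members was 7.

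The promoters of ATF3 and CHAC1, a glutathione-degrading enzyme, hold letters that match the C/EBP-ATF response element, a kind of site that ATF4 is known to bind. A single RefSeq start per gene was searched, and binding at these matches was not tested. Each match is shown in capitals within 30 bases of RefSeq promoter on GRCh38.p14. They lie at chr1:212565205-212565234 and chr15:40953251-40953280 on the plus strand. The ATF3 promoter reads TGATGNAA on the printed strand and the CHAC1 promoter reads it on the opposite one.
ATF3 promoter: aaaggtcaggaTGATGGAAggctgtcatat
CHAC1 promoter: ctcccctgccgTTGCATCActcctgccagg
These letters, read on both strands, were found in 8 of 24 promoters of the list and in 3.67% of all promoters. CHAC1 had a log2 difference of -0.96 and ASNS, whose promoter also holds the letters and which makes asparagine, one of -0.29 that was not called.

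Genes for amino acid supply were divided between the 2 directions. Of 18 tested transporters, 7 were lower, 3 were higher and 8 were not called (55.6% called, against 17.7% over all entries). Their median log2 difference was -0.53. SLC7A1, the main importer of cationic amino acids, held 1874, 1939 and 1867 CPM in control and 1172, 806 and 885 CPM in ZC3H7B-OE (log2 difference -0.99, SE 0.15). SLC38A2, a glutamine and alanine transporter, held 3512, 3198 and 3512 CPM against 2129, 1844 and 1948 CPM (log2 difference -0.79, SE 0.12, edgeR adjusted p = 2.15e-05). SLC36A4 and SLC7A2 were lower as well, with log2 differences of -1.11 and -0.72. The transporters called higher were SLC43A2, SLC38A7 and SLC7A8, and 1 was called without replicate 1 of either line or control 4 h replicate 2. Of 21 tested synthesis genes, 4 were lower and 2 were higher (28.6% called), with a median of 0.06. Over entries with a mean of at least 20 CPM, 15.8% were lower and 10.6% were higher. CTH, which makes cysteine from cystathionine, was lower, with a log2 difference of -1.76 (SE 0.30), while CBS, the enzyme before it in the same pathway, was higher at 0.59 (SE 0.14). GLUL, glutamine synthetase, and MTHFD2, a mitochondrial folate enzyme, were lower, at -0.84 and -1.12. In the 6 libraries alone 6 synthesis genes were higher.

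Regulators of the G1 phase had 5 lower and 1 higher of 14 tested (42.9% called, against 17.7% over all entries). CDKN1A, the cyclin-dependent kinase inhibitor p21, held 342, 291 and 375 CPM in control and 125, 123 and 128 CPM in ZC3H7B-OE (log2 difference -1.42, SE 0.16, edgeR adjusted p = 3.77e-07). No ZC3H7B-OE library reached any control library, which was required of genes named by size and held for 22.5% of all entries. The cyclin CCND1 (-1.04), the kinase CDK6 (log2 difference -0.93, SE 0.14) and the inhibitor CDKN2B (-0.93, SE 0.15) were lower. CDKN2A, the neighbouring inhibitor locus, was higher, at 196, 175 and 221 CPM in control and 262, 388 and 320 CPM in ZC3H7B-OE (log2 difference 0.71, SE 0.16). Among 33 tested DNA replication genes 4 were lower and 2 were higher (18.2% called, against 17.7% over all entries). RRM2, the S-phase ribonucleotide reductase subunit, was the clearest, at -1.33 (SE 0.17, edgeR adjusted p = 1.44e-06). Of 27 mitotic genes 2 were lower and 1 was higher (11.1% called), and 0 or 1 was lower without any single 4 h library.

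Hippo pathway genes and YAP targets had 8 lower and 1 higher member of 19 tested (47.4% called, against 17.7% over all entries). Their median log2 difference was -0.30. The lower ones included CTGF, CYR61, the kinase activators MOB1A (-0.62, SE 0.13) and MOB1B, the adaptor AJUBA (-0.90, SE 0.20), and the coactivators YAP1 and WWTR1, at -0.53 and -0.61. AMOT was the higher member. There were 5 lower members without ZC3H7B-OE 4 h replicate 2 or 3, and also 5 when control 4 h replicate 1 was left out.

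Among the genes with at least 200 CPM, the largest differences downward besides CDKN1A, ATF3 and TRIB3 belonged to SESN3, LIN7C and PCGF5. SESN3, a sestrin that restrains mTORC1, held 327, 303 and 286 CPM in control and 129, 113 and 105 CPM in ZC3H7B-OE (log2 difference -1.40, SE 0.15). LIN7C, a scaffold of cell junctions, held 322, 295 and 292 CPM against 129, 121 and 115 CPM (log2 difference -1.32, SE 0.15). PCGF5, a Polycomb group protein, had a log2 difference of -1.25 (SE 0.20).

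In the other direction at that level stood AP2S1, COLGALT1, POFUT2, RPS2, TIMM13 and YARS. COLGALT1, which adds galactose to collagen hydroxylysine, held 274, 289 and 349 CPM in control and 592, 547 and 565 CPM in ZC3H7B-OE (log2 difference 0.90, SE 0.13, edgeR adjusted p = 6.98e-06). YARS, tyrosyl-tRNA synthetase, held 307, 307 and 374 CPM against 587, 566 and 590 CPM (log2 difference 0.82, SE 0.12, edgeR adjusted p = 1.45e-05). POFUT2, a protein O-fucosyltransferase, had a log2 difference of 0.85 (SE 0.14) and TIMM13, a chaperone of the mitochondrial intermembrane space, 0.84 (SE 0.13). AP2S1, the small subunit of the clathrin adaptor AP2, rose by 0.93 (SE 0.17). RPS2 held 265, 233 and 299 CPM in control and 330, 626 and 474 CPM in ZC3H7B-OE, a wide spread, and lost its call in the fit of the 6 libraries alone (edgeR adjusted p = 0.0731).

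Cytosolic ribosomal protein genes had a median log2 difference of 0.46 but few calls. Of 74 tested, 7 were higher, 1 was lower and 66 were not called, a share of 10.8% against 17.7% over all entries. All 3 ZC3H7B-OE libraries lay above all 3 control libraries for 18 of them, where 18.1% of all entries did so. Summed over the list, the level was 13380 to 14320 CPM in control and 14400 to 20720 CPM in ZC3H7B-OE. The count depended on single libraries: without ZC3H7B-OE 4 h replicate 1 it was 19 higher, without ZC3H7B-OE 4 h replicate 2 it was 3, without control 4 h replicate 2 it was 4, and with the 0 h libraries left out it was 27. RPL13 (log2 difference 1.02, SE 0.20) was among those called. Genes of this family have many processed pseudogene copies, so their counts are uncertain.

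The 2 lists of nuclear genes for mitochondrial proteins had most members not called. Of all entries with a mean of at least 20 CPM, 10.6% were higher and 15.8% were lower. Among 64 tested mitochondrial ribosomal protein genes 12 were higher and 2 were lower, with a median of 0.19 (21.9% called), and among 69 respiratory chain entries 10 were higher and 4 were lower, with a median of 0.43 (20.3% called, against 17.7% over all entries). MRPS34 held 165, 146 and 175 CPM in control and 239, 307 and 289 CPM in ZC3H7B-OE (log2 difference 0.78, SE 0.13). MRPS10 and MRPL19 were the lower members, at -1.04 and -0.98. NDUFS1, the large iron-sulphur subunit of complex I, was lower, at -0.82 (SE 0.16). NDUFB7, a small subunit of the same complex, was higher, at 1.00 (SE 0.28), with libraries that overlapped. NDUFB7 had an edgeR adjusted p of 0.114 without ZC3H7B-OE 4 h replicate 2 and of 0.0542 without control 4 h replicate 1. The counts of higher members were 4 and 3 without control 4 h replicate 1, 7 and 4 without control 4 h replicate 2 and 5 and 4 without ZC3H7B-OE 4 h replicate 2, and in the 6 libraries alone they were 21 and 22.

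Glycolytic enzymes had 5 higher and 0 lower of 17 tested (29.4% called, against 17.7% over all entries). Over entries with a mean of at least 20 CPM, 10.6% were higher and 15.8% were lower. Their median was 0.27, and 3 were higher without control 4 h replicate 1 or 2. ENO1, enolase, held 1357, 1273 and 1474 CPM in control and 1881, 2210 and 2189 CPM in ZC3H7B-OE (log2 difference 0.61, SE 0.13, edgeR adjusted p = 0.000746). GAPDH held 575, 537 and 710 CPM against 744, 1190 and 1172 CPM (log2 difference 0.77, SE 0.16), and ALDOA, aldolase, had a log2 difference of 0.75 (SE 0.14). The hexokinases HK1 and HK2 and the glucose transporters SLC2A1 and SLC2A3 were not called, at 0.21, -0.29, -0.21 and -0.66. Hypoxia targets had 0 higher and 3 lower of 18 (16.7% called). The lower ones were DDIT4, VEGFA at -0.65 (SE 0.13) and ERO1L at -0.70 (SE 0.17). In the actin list 5 of 20 were higher and 1 was lower (30% called). The higher ones numbered 3 without control 4 h replicate 1 or 2. LCP1, CFL1, cofilin (0.49, SE 0.11), and PFN1, profilin (0.69, SE 0.16), were among them. VCL, vinculin, was lower (-0.48, SE 0.13) but not without ZC3H7B-OE 4 h replicate 3 (edgeR adjusted p = 0.0756).

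Of 24 cytosolic chaperone genes 6 were lower and 2 were higher (33.3% called, against 17.7% over all entries). HSPH1, a nucleotide exchange factor for HSP70, held 295, 253 and 276 CPM in control and 157, 149 and 154 CPM in ZC3H7B-OE (log2 difference -0.84, SE 0.14, edgeR adjusted p = 5.02e-05). CDC37, which brings kinases to HSP90, was higher, at 193, 209 and 250 CPM against 329, 375 and 377 CPM (log2 difference 0.73, SE 0.17). HSPA8, the constitutive HSP70, had a log2 difference of -0.02. In the endoplasmic reticulum list 5 were lower and 4 were higher of 20 (45% called). SEL1L, CANX, XBP1 and ERN1, which act in degradation, glycoprotein folding and signalling, lay between -0.95 and -0.77. CALR, P4HB, PDIA4 and SEC61B were higher. The higher members numbered 1 without ZC3H7B-OE 4 h replicate 2 or control 4 h replicate 1 or 2; when ZC3H7B-OE 4 h replicate 3 was left out they numbered 2. Of 26 lipid synthesis genes 4 were lower (2 without ZC3H7B-OE 4 h replicate 3) and 1 was higher (19.2% called). SCD, the stearoyl-CoA desaturase, held 1255, 1309 and 1419 CPM against 724, 646 and 672 CPM (log2 difference -0.96, SE 0.12, edgeR adjusted p = 7.09e-07).

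Lists for mRNA decay and translation differed in their share of calls, against 17.7% over all entries. Of entries with a mean of at least 20 CPM, 10.6% were higher and 15.8% were lower. In the CCR4-NOT list, the complex that removes poly(A) tails, 4 of 17 were lower and 0 were higher (23.5% called). These were BTG2, an antiproliferative cofactor (-1.22, SE 0.22), the deadenylase subunits CNOT6 (-0.53, SE 0.12) and CNOT6L (-0.75, SE 0.17), and CNOT10, which lost its call when any single 4 h library was left out. CNOT1, the scaffold of the complex, had a log2 difference of 0.04. Among 18 decapping genes LSM4 and LSM7, subunits of the Sm-like ring that binds shortened mRNAs, were higher, at 0.79 (SE 0.15) and 0.90 (SE 0.17). Of 13 tested genes of the microRNA pathway 0 were called, of 14 for m6A modification only ALKBH5 was, at 0.48 (SE 0.13), and of 16 exosome and SKI genes only EXOSC5 was, at 0.64 (SE 0.20). ALKBH5 lost its call without ZC3H7B-OE 4 h replicate 1 or control 4 h replicate 2 (edgeR adjusted p = 0.0511 and 0.0906). EXOSC5 lost its own without ZC3H7B-OE 4 h replicate 2 (edgeR adjusted p = 0.151) or control 4 h replicate 1 or 2 (0.0745 and 0.0952). With the 6 libraries alone 3 microRNA pathway genes were higher and 3 lower. The nonsense-mediated decay list had RBM8A lower at -0.65 (SE 0.11) and SMG9 higher at 0.82 (SE 0.16). Of 34 translation factors 2 were higher, EIF6 and EEF2, and 1 was lower, EIF1AX, with log2 differences of 0.92, 0.40 and -0.81. EEF2 had an edgeR adjusted p of 0.0795 without ZC3H7B-OE 4 h replicate 2. Without control 4 h replicate 1 or 2 the edgeR adjusted p of EEF2 was 0.08 or 0.146. tRNA modification enzymes had 3 higher and 4 lower of 32 (21.9% called), and 0 lower without ZC3H7B-OE 4 h replicate 3 and 2 without ZC3H7B-OE 4 h replicate 1 or control 4 h replicate 2 or 3. The ribosome quality control list had 2 higher and 2 lower of 14 (28.6% called). Of the called tRNA modification enzymes, the base methyltransferase TRMT61A was the clearest. It held 51.1, 59.8 and 68.0 CPM in control and 138, 117 and 118 CPM in ZC3H7B-OE (log2 difference 1.06, SE 0.17, edgeR adjusted p = 3.87e-05).

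RNA-binding proteins with CCCH fingers, the family of ZC3H7B, had 3 higher and 5 lower of 43, a share of 18.6% called against 17.7% over all entries. Of these, 0 were higher without replicate 2 of either line at 4 h and 1 without replicate 1 of either line, and 2 were lower without ZC3H7B-OE 4 h replicate 2 or 3 and 3 without control 4 h replicate 1 or 3. MBNL3, a splicing regulator, and ZC3H6 were lower, at -1.15 (SE 0.18) and -1.75 (SE 0.34). U2AF1, a splice site factor, was higher at 0.90 (SE 0.25). It was not called without replicate 2 of ZC3H7B-OE or of control at 4 h (edgeR adjusted p = 0.0631 and 0.0626). Its copies make its count uncertain. Among regulators that bind AU-rich and other elements, LIN28B, which blocks let-7 maturation (-0.80, SE 0.15), and TIA1 (-1.12, SE 0.24) were lower, and KHSRP (0.54, SE 0.13) was higher.

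HOX genes, which set position along the body axis, had 9 higher and 1 lower of 33 (30.3% called), with a median of 0.29. Over entries with a mean of at least 20 CPM, 10.6% were higher and 15.8% were lower. HOXB7 held 66.2, 62.5 and 74.1 CPM in control and 113, 146 and 129 CPM in ZC3H7B-OE (log2 difference 0.94, SE 0.16, edgeR adjusted p = 6.91e-05), and HOXC9 and HOXB2 stood at 0.92 and 0.84. C2H2 zinc finger genes with ZNF symbols had 43 lower and 18 higher of 329 (18.5% called, against 17.7% over all entries), with a median of -0.13. Without control 4 h replicate 1 there were 24 lower and 8 higher, and the higher ones numbered 10 without control 4 h replicate 2 and 11 without ZC3H7B-OE 4 h replicate 2. ZNF302, for example, held 587, 602 and 631 CPM in control and 338, 327 and 350 CPM in ZC3H7B-OE (log2 difference -0.84, SE 0.12). Of 30 tested histone genes 6 were lower and 2 were higher (26.7% called), and 3 were lower without ZC3H7B-OE 4 h replicate 3. The linker histone H1F0 (-1.11, SE 0.14) and the variant H2AFV (-0.92, SE 0.12), both made as polyadenylated mRNAs, were lower, and H2AFX was higher (0.62, SE 0.12). Other lower members, such as HIST2H3A, have near-identical copies and are uncertain.

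**Figure D3:**
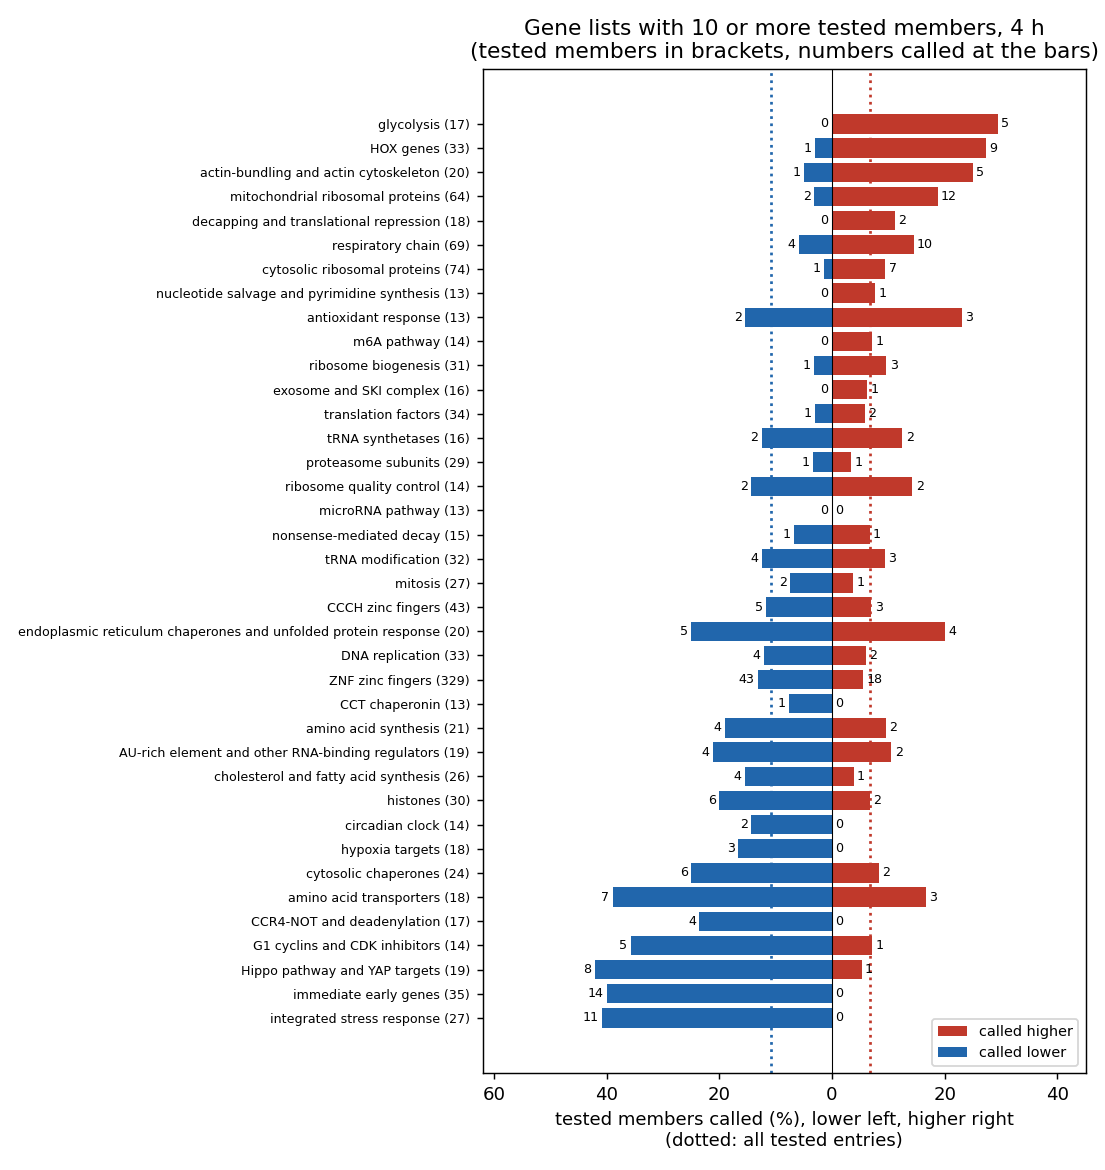
Share of the tested members of each list that was called lower (blue, to the left) or higher (red, to the right) in ZC3H7B-OE at 4 h, in percent, for lists with 10 or more tested members, cell markers and 1 list not reported here left out; dotted lines mark the shares over all tested entries, 10.9% lower and 6.79% higher. Among the lists drawn with 0 higher members the integrated stress response and immediate early lists reach farthest to the left, and glycolysis and HOX genes reach farthest to the right.

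Base composition separated the genes called in the 2 directions. GC3, the share of G or C at the last position of codons, was taken from the coding sequence of 9403 tested genes. Its median was 75.28% in genes called higher, 44.36% in genes called lower and 59.53% in all. The median 3′ UTR length was 594 bases in genes called higher, 2469 in genes called lower and 1000 in all, and the median G or C content of the 3′ UTR was 54.94%, 36.03% and 42.8%. Genes with a GC3 of at most 30% had a median log2 difference of -0.47, with 30.8% of them lower and 0 of 117 higher. Genes with a GC3 above 80% had a median of 0.29, with 16.9% higher and 4.08% lower. Deviations of log2 CPM from each gene's mean over the 6 libraries were compared between genes with GC3 above 70% and at most 40%. The first median minus the second was -0.424, -0.283 and -0.208 in the control replicates and 0.314, 0.289 and 0.311 in the ZC3H7B-OE replicates. It varied among the control libraries, and whether library preparation had a part was not tested.

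Across genes, which are not independent replicates and share the libraries, Pearson's r between GC3 and the log2 difference was 0.362, and between 3′ UTR G or C content and the log2 difference 0.393. The same r with GC3 was 0.473 at 0 h, 0.23 at 2 h and 0.316 at 6 h. The codons with the lowest r were ATA (isoleucine), TTA (leucine) and AAT (asparagine), at -0.313, -0.309 and -0.299, and those with the highest were GCC (alanine) and CTG (leucine), at 0.288 and 0.282. GC3 and 3′ UTR composition had an r of 0.743 with each other, so these data do not separate codons from the rest of the transcript, and the part of either in the differences was not tested.

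**Figure D4:**
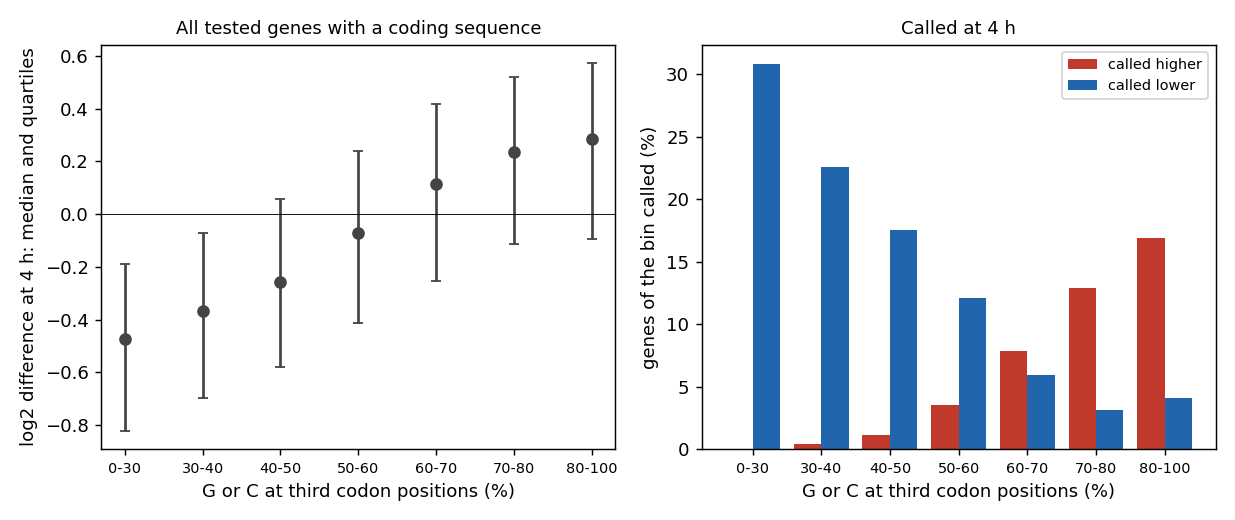
Left, median log2 difference at 4 h (points; bars span the quartiles) by class of GC3, over 9403 genes; right, percent of each class called higher (red) or lower (blue). The median climbs from -0.47 in the lowest class to 0.29 in the highest, and the called shares cross between 50% and 70%.

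The lists differed in how far they departed from genes of like GC3. The classes were not matched for the composition of the 3′ UTR, so a departure from them is not a departure from base composition as a whole. Immediate early genes were rich in G and C at the last codon position, with a median GC3 of 78.9%, yet 33 of 34 lay below the median log2 difference of their GC3 class, by a median of -0.74. Members of the integrated stress response lay below their class in 24 of 27 cases (median -0.39) and amino acid transporters in 15 of 18 (median -0.52). Cytosolic ribosomal protein genes lay above their class in 61 of 72 cases, by a median of 0.42. HOX genes had a median GC3 of 77.0% and lay near their class, with a median of 0.02 from it, and ZNF genes, at a median GC3 of 43.0%, were 0.04 from it. Cytosolic chaperones, at 43.2%, were also near, at 0.03.

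Labelled and unlabelled reads of the called genes mostly differed in the same direction. Of 659 genes called higher with at least 10 reads of each kind in each line, 651 were higher in both kinds, with medians of 0.66 for labelled and 0.65 for unlabelled reads. Of 1006 genes called lower, 996 were lower in both, but by more in labelled reads, with medians of -1.03 and -0.56. The median labelled share of genes called lower was 48.49% in control and 40.04% in ZC3H7B-OE. It was 57.57% and 57.63% for genes called higher, and 46.81% and 43.39% over all tested entries. The values are parts of the same reads that gave the calls and are a description. SCD had the largest gap of the genes described above with over 1000 CPM in control: its labelled share was 73.5% ± 0.403 (SD, n = 3) in control and 58.6% ± 1.36 in ZC3H7B-OE. SESN3 went from 58.8% ± 3.95 to 44.7% ± 3.28. ATF3 and TRIB3 had higher labelled shares in ZC3H7B-OE, 33.0% ± 2.73 against 27.0% ± 3.78 and 41.5% ± 1.09 against 35.3% ± 1.32.

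The difference at 4 h was compared with the mean difference at 0, 2 and 6 h, which rests on other libraries. By edgeR's test of this interaction 0 of 10038 entries passed, with a smallest adjusted p of 0.49, while 888 (8.85%) had an unadjusted p under 0.05. DESeq2 and limma-voom also called 0. A p that misses the threshold does not show that the differences were equal. Of the 682 entries higher at 4 h, 331 were also called higher at 0 h (48.5% of them, and 28.3% of the 1170 called at 0 h), 114 at 2 h (16.7%, and 51.8% of 220) and 308 at 6 h (45.2%, and 47% of 656). Of the 1090 lower entries, 776 were called lower at 0 h (71.2%, and 39.6% of 1962), 531 at 2 h (48.7%, and 72.8% of 729) and 668 at 6 h (61.3%, and 72.1% of 927). At the other 3 times 245 of the higher and 157 of the lower entries were not called at all.

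Some genes had like differences at each time and others did not. LCP1 differed by 4.28, 4.30, 4.04 and 4.87 on the log2 scale at 0, 2, 4 and 6 h, and COLGALT1 by 1.03, 0.83, 0.90 and 1.16. EGR1 differed by -1.25, -1.74, -2.13 and -1.74. TRIB3 stayed between -1.30 and -1.18. AP2S1 differed by 0.07, 0.18, 0.93 and 0.54, and GAPDH, ENO1 and RPS2 were called at 4 h alone of the 4 times. The 4 h difference of GAPDH exceeded the mean of the other times by 0.71 (SE 0.18), that of ENO1 by 0.57 (SE 0.14) and that of RPS2 by 0.76 (SE 0.21). Each had an edgeR adjusted p of 0.49 and so did not pass.

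**Figure D5:**
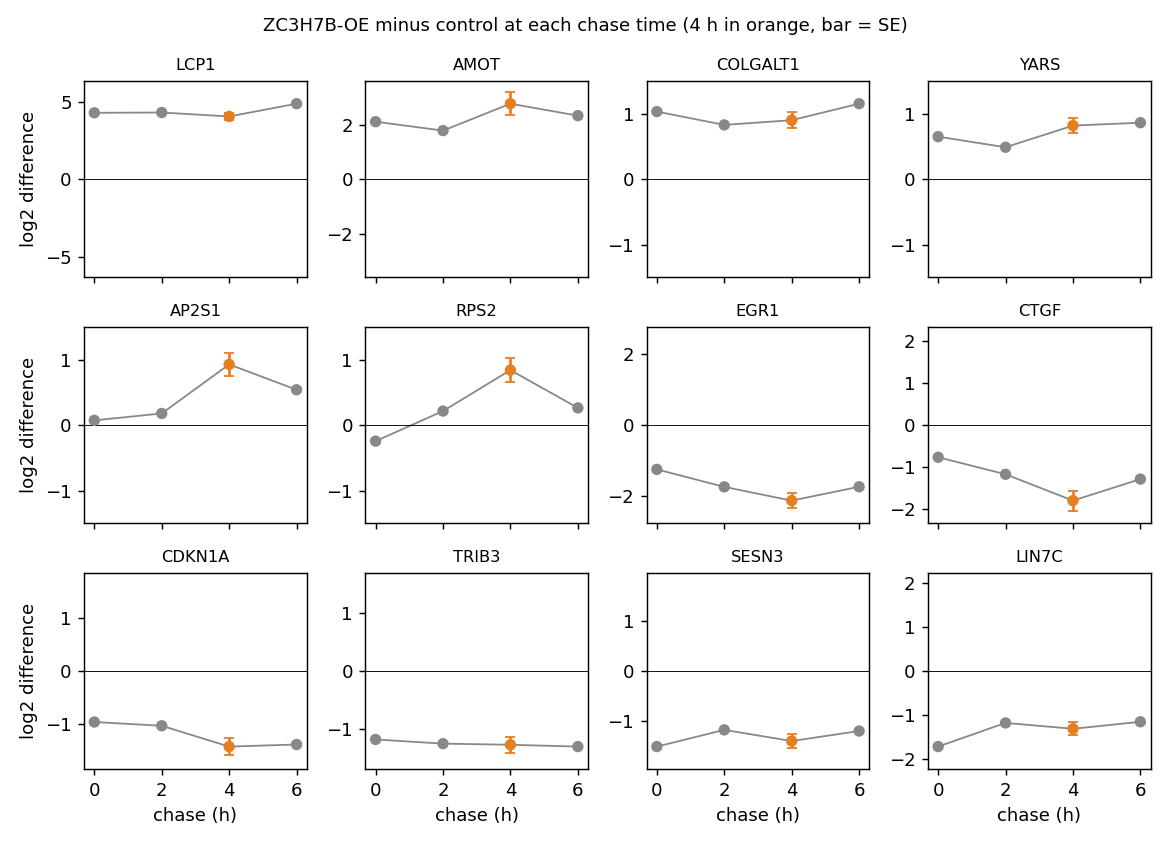
Fitted log2 difference (ZC3H7B-OE minus control) at 0, 2, 4 and 6 h of chase for 12 named genes; the 4 h value is orange with its SE, and each panel has its own vertical scale. LCP1, COLGALT1, TRIB3 and LIN7C keep similar values across times, while AP2S1 and RPS2 lie near 0 at 0 h and are highest at 4 h.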

How the data were processed

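The authors deposited raw whole-number read counts per gene in separate tables for total and for converted (labelled) reads. Poly(A) RNA was prepared with a directional kit, per the labels' protocols; the submitters' processing notes name fastp and GRCh37. No source used here names the aligner, the conversion caller, the counting rule or its use of strand. Of 19692 entries, 450 name several genes and stayed in library sizes and tests; 42 of them were called.

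Counts of all 24 libraries were fitted with edgeR 4.0.16 (R 4.3.3, limma 3.58.1): robust quasi-likelihood, 8 group means, TMM scaling, filterByExpr with a minimum count of 10, and Benjamini-Hochberg adjustment at 0.05 over all 10038 tested entries. Standard errors are the log2 difference over the root of F. Groups at 0 reads were compared against a floor of 3 counts over the group; intervals and floors cover counting error only, as amplified reads lacking molecular identifiers may be copies of the same molecule. Labelled folds needed at least 10 reads of each kind per line and use the library sizes of all reads.

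Named genes were ZC3H7B and ZC3H7A; the 12 largest called, non-overlapping differences each way with at least 10 CPM; the 6 each way with at least 200 CPM; up to 4 called members of each list by adjusted p; and cell markers with at least 10 CPM. A few genes that this rule names, and 1 list, are not reported here. Further genes were named after their values were seen. The comparison, the 47 lists and the rule were chosen with earlier results of these data known. Coding and 3′ UTR sequences came from GENCODE 29 for 9403 of 9728 genes (96.7%), and promoters from RefSeq on GRCh38.p14; coordinates were not joined with the count tables. No pair of 4 h replicates was a duplicate: chi-square per degree of freedom ran from 2.738 to 7.022. The fits were tested on simulated data. Alternatives were other scalings, DESeq2 1.42.0, limma-voom, filters, a replicate block, fewer libraries and each library left out, and, chosen after seeing the data, 0 h left out and 4 and 6 h alone.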

Additional observations from a re-analysis of the deposited data

How the results depend on the processing

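The counts of 682 higher and 1090 lower entries at 4 h moved most with the libraries in the fit. With the 6 libraries alone they were 1452 and 1652, and with the replicate number as a block in that fit 1440 and 1658. With the 0 h libraries left out there were 1477 higher and 1403 lower, and with 4 and 6 h alone 1497 and 1709. Leaving out single libraries gave 335 to 1239 higher and 676 to 1601 lower; 335 came without control 4 h replicate 1, 676 without ZC3H7B-OE 4 h replicate 3, and both high ends without control 0 h replicate 3. Those higher also numbered 356 without the second control library at 4 h and 430 without the second of ZC3H7B-OE. The cause was not tested. With all 24 libraries the block gave 644 and 1068. Deviations of same-numbered libraries at 4 h had correlations of -0.0164, -0.0321 and 0.0801. Those of the other pairs ran from -0.0439 to 0.0612. These values cannot show whether same-numbered libraries shared a culture or a day. The block ended the calls of FARSA (edgeR adjusted p = 0.0555) and BUB3 (0.0502). Upper-quartile scaling gave 877 and 994, DESeq2 847 and 1274, and limma-voom 851 and 1330. For the 4 h difference against the other times, 75 higher and 11 lower were called with no low-count filter, where 16669 entries were tested; leaving out single libraries gave 0 to 4 higher and 0 to 2 lower.

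Among named genes, signs changed only for markers that were not called. KRT8 ranged from -0.277 to 0.3896 when single libraries were left out (-0.06849 and -0.2431 without the second or the third ZC3H7B-OE library at 4 h), SALL1 from -0.01209 to 0.2698 and EPCAM from -0.3783 to 0.08234. CDH2 was 0.02412 with upper-quartile scaling, 0.0282 with 0 h left out, and -0.2383 to 0.1255 with single libraries left out, 0.001439 among them. For all 169 genes that the rule names and the tables keep, mentioned here or not, 5900 of the alternative values kept their direction and side of the threshold, 155 lost the call and 14 gained it.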
